A study of Mus musculus with 12 samples.

Results

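The genes described here encode the enzymes of glycolysis and of the pentose phosphate pathway, the transporters and dehydrogenases that handle lactate, and the hypoxia-inducible factor HIF1A with its hydroxylases and a set of its known targets. They were taken by gene symbol from the deposited expression tables, 36 of 23845 genes, and each of the 36 was found once. All 36 passed the filter on low counts. They were measured by RNA sequencing in microglia, the resident macrophages of the brain, which had been purified on Percoll gradients. The mice were C57BL6/J, 3 to 4 months old. There were 4 groups of 3 libraries, each library from 1 animal: wild type (WT), wild type injected with lipopolysaccharide 24 h before the cells were harvested (WT-LPS), mice without CPEB1 (CPEB1-KO), and such mice injected in the same way (CPEB1-KO-LPS). CPEB1 binds RNA and regulates poly(A) tail length and translation, and lipopolysaccharide (LPS) is a component of bacterial outer membranes. The LPS dose, the sex of the animals, the part of Cpeb1 that was removed and any vehicle injection of the untreated mice are not stated in the labels.

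Glycolysis splits glucose into pyruvate in the cytosol. Hexokinases trap glucose, phosphofructokinase commits it, and the enzymes from aldolase to pyruvate kinase recover the energy as ATP. Lactate dehydrogenase and monocarboxylate transporters then dispose of pyruvate as lactate, while the pentose phosphate branch makes NADPH and sugars for nucleotides. Macrophages exposed to LPS are known for a switch towards glycolysis, in which HIF1A takes part. HIF1A protein is marked for destruction by oxygen-dependent prolyl hydroxylases and otherwise acts on genes whose promoters hold a short core motif.

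Promoter sequences are shown for 4 genes called with LPS in opposite directions, Pfkfb3 and Slc16a1 upwards and Pdk1 and P4ha1 downwards. The Slc16a1 call held in 12 of 22 alternatives tried in wild type and in 11 of 21 on average. The stretches shown are RefSeq sequences of the GRCm38.p6 build, printed along the strand of the gene. Each ends before any annotated exon of its gene and, where it begins outside the gene, before the gene itself. Capitals mark the core motif bound by HIF, ACGTG or GCGTG, read on both strands, so that CACGT and CACGC count as well and CACGTG counts on each strand. The Pfkfb3 window, chr2:11502102-11502340 on the minus strand, lies inside the gene upstream of an internal start site. The Slc16a1 window is chr3:104638414-104638663, that of Pdk1 is chr2:71872974-71873214 and that of P4ha1 is chr10:59323046-59323196, all on the plus strand and upstream of the gene.
Pfkfb3: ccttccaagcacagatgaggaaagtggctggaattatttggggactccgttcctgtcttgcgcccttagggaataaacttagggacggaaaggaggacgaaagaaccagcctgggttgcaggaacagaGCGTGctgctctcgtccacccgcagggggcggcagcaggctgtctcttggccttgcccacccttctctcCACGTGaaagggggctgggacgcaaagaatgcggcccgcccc
Slc16a1: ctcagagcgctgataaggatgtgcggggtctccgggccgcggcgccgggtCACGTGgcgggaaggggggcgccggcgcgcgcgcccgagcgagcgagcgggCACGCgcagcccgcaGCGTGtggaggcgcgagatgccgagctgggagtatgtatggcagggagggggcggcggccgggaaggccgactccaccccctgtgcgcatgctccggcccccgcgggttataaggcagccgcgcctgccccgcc
Pdk1: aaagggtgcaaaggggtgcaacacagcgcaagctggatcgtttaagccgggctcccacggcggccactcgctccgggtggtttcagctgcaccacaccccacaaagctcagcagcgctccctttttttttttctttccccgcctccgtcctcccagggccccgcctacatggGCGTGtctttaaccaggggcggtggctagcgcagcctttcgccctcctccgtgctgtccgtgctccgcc
P4ha1: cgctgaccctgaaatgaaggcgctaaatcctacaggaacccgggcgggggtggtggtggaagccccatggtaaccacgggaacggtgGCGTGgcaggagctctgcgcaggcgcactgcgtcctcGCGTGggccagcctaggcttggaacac
The printed stretches held 3 matches in Pfkfb3, 4 in Slc16a1, 1 in Pdk1 and 2 in P4ha1. For each gene, the start site with the most matches was printed. Over windows of 300 bases, from 250 before to 50 after a start site, 33 of the 36 genes (91.7%) had a match at 1 or more start sites, against 12628 of 27025 genes (46.7%) in the RefSeq table. Counted by start site, these shares were 43 of 53 (81.1%) and 43.8%. Gpi1, Tpi1 and Eno2 had none in these windows. The shares were not matched for base composition, and a match is a string of letters, not a measured binding site. Genes on both sides of the LPS response held it: 5 of the 5 that rose on average over both genotypes, 3 of the 3 that fell, and 25 of the 28 that passed in neither direction.

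The libraries held between 5.02 and 13.5 M expected counts (M is 1e+06). All 10 microglia markers were above 0 in every library, and their summed level was 5536 to 6504 TPM (transcripts per 1e+06 transcripts) in WT, 1042 to 4931 in WT-LPS, 2678 to 4196 in CPEB1-KO and 765 to 2928 in CPEB1-KO-LPS. The preparations were mixed. All 10 neuron markers were above 0 in every library as well, with sums from 1546 to 6604 TPM, and replicate 1 stood apart from the other libraries of its group in WT (4471 against 1546 and 1791 TPM) and in WT-LPS (6604 against 2264 and 2696 TPM). The 4 erythroid markers found, chiefly haemoglobin genes, summed to between 41663 and 66991 TPM without LPS and between 6544 and 10887 TPM with LPS in wild type. The untreated knockout libraries held between 27877 and 37849 TPM of them, and the treated ones 7051, 11851 and 61141 TPM, so that CPEB1-KO-LPS replicate 3 stood apart. Group means of the summed markers were 3021 to 5784 TPM for oligodendrocytes, 1746 to 2832 for neutrophils and 880 to 1765 for astrocytes. Markers of other cells moved with LPS too. In WT-LPS against WT, 1 of 10 neuron and 2 of 8 astrocyte markers were higher. Lower there were 4 of 4 erythroid, 2 of 8 oligodendrocyte and 1 of 8 neutrophil markers. Of 5 choroid plexus markers, 5 were lower in WT-LPS against WT and 4 in CPEB1-KO-LPS against CPEB1-KO, and their summed mean was 5650 TPM in WT and 1693 in WT-LPS. Of 7 monocyte markers, 4 were higher in WT-LPS against WT (summed means of 53.8 and 376 TPM). Of 7 endothelial markers, 3 were higher and 1 lower, with sums of 55.3, 51.2 and 145 TPM in WT-LPS and 19.7 to 28.8 in WT. In this comparison 3 of 4 B cell, 2 of 3 T cell and 3 of 5 border macrophage markers were lower. In CPEB1-KO-LPS against CPEB1-KO, 1 monocyte and 1 endothelial marker were lower, and none of either list was higher. The part of these cells in the results below was not tested. In such bulk RNA, fewer cells of a type and less RNA per cell cannot be told apart. Cpeb1 itself was present in the libraries labelled CPEB1-KO, at 17.6 to 26.4 TPM, a range that overlapped with the 15.5 to 43.3 TPM of WT.

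A minority of these genes differed between the WT-LPS and WT preparations, and in both directions. Expected counts were compared with the edgeR quasi-likelihood test, and a gene was called at a Benjamini-Hochberg adjusted p under 0.05 over all 15295 genes tested. In WT-LPS against WT, 3 of the 36 genes rose (Pfkfb3, Hif1a and Slc16a1) and 5 fell (Hk3, P4ha1, Pdk1, Pfkfb4 and P4ha2), together 22.2%, beside 27.4% of all genes (12.4% higher and 14.9% lower). The median log2 fold change was 0.17 over the 36 genes and -0.03 over all genes. In simulated counts over 15295 genes, 100 genes were changed 4-fold and 100 genes 2-fold, and 74% and 17% of them were called. Far fewer genes changed there than were called in the data. The Benjamini-Hochberg cut-off depends on that share, so these rates do not tell how many such changes were found here. In CPEB1-KO-LPS against CPEB1-KO, Pfkfb3 rose and Pdk1 fell, 5.56% of the 36 genes beside 6.22% of all genes (4.1% higher and 2.12% lower), and the median was 0.00. Averaged over both genotypes, 5 rose (Pfkfb3, Hif1a, Slc16a1, Pfkfb2 and Pgd) and 3 fell (Hk3, Pdk1 and P4ha1), again 22.2%, beside 29.4% of all genes (14.6% higher and 14.8% lower). None of these total shares was above that of all genes. The libraries of the 2 groups did not overlap for 11 of the 36 genes in WT-LPS against WT (37.6% of all genes), 12 in CPEB1-KO-LPS against CPEB1-KO (35.4%), 11 in CPEB1-KO against WT (26.8%) and 5 in CPEB1-KO-LPS against WT-LPS (14.2%). The average uses the same libraries as the comparisons within each genotype and is not a separate set of data.

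The split into higher and lower depended on the scale. On log2(TPM + 1) with limma, 11 genes were higher and 2 lower in WT-LPS against WT, beside 22.1% of all genes higher and 7.11% lower. On that scale the median of all genes was itself shifted up by 0.28, and the median of the 36 genes was 0.58. For the average LPS response the same test called 7 higher and 3 lower, beside 18.2% and 9.32% of all genes, with a shift of 0.12 in the median of all genes. The LPS fold changes of the 7 role groups are drawn in the plot of all 36 genes, and values by library are given below as scaled CPM, which are counts per 1e+06 of the library size after TMM (trimmed mean of M values) scaling.

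**Figure D1:**
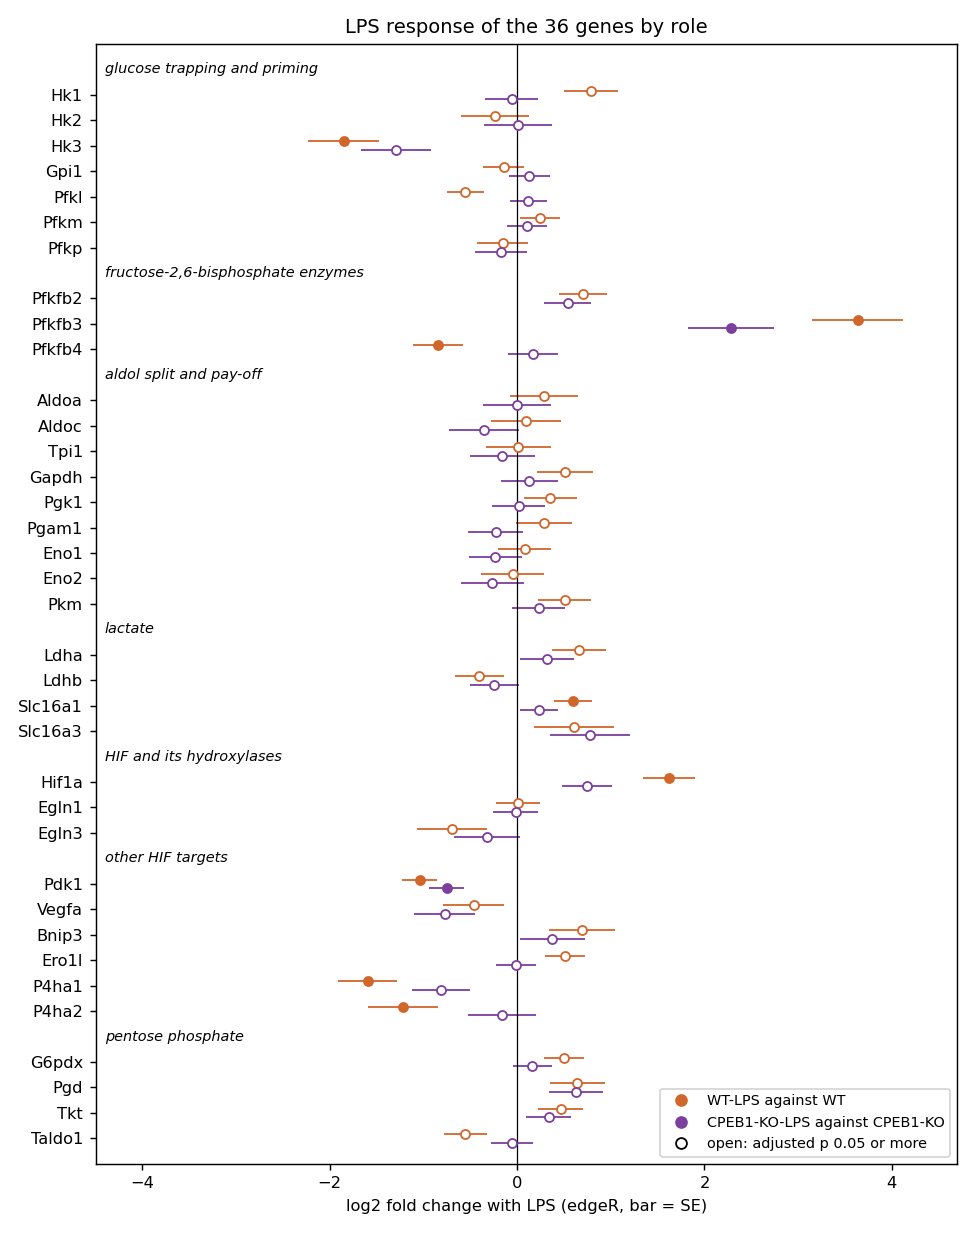
Log2 fold change with LPS (x axis) of each of the 36 genes (y axis, grouped by role) in wild type (orange) and CPEB1-KO (purple), from edgeR, with bars for the standard error and filled points at an adjusted p under 0.05. Pfkfb3 lies furthest to the right in both genotypes, at 3.63 and 2.28, and the 9 enzymes from aldolase to pyruvate kinase lie near 0 with no filled point.

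The PFKFB enzymes make and break down the sugar phosphate that activates phosphofructokinase, and the inducible form PFKFB3 strongly favours its synthesis. Pfkfb3 (chr2:11471430-11554071) had the largest LPS response of the 36 genes in each genotype. Its level in WT was 50.2, 61.8 and 48.3 scaled CPM, and in WT-LPS it was 271, 850 and 868. In CPEB1-KO it was 51.9, 54.0 and 47.8 scaled CPM, and in CPEB1-KO-LPS 133, 182 and 432. Untreated libraries of both genotypes lay together within a narrow range, and no LPS-treated library came down to it. The log2 fold change was 3.63 ± 0.49 (SE; edgeR adjusted p = 0.000403) in wild type and 2.28 ± 0.46 (edgeR adjusted p = 0.0102) in CPEB1-KO. The wild-type call held in all 22 alternatives tried, whereas the CPEB1-KO call ended without CPEB1-KO replicate 2 (edgeR adjusted p = 0.0531) or replicate 3 (0.0557). Replicate 1 was the lowest WT-LPS library and also the one with the highest neuron and lowest microglia marker sums, and its part in this spread was not tested.

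Pfkfb2, the PFKFB isoform known from heart, moved less. It was 52.7, 30.5 and 53.1 scaled CPM in WT, 61.5, 68.9 and 91.5 in WT-LPS, 55.8, 60.3 and 48.7 in CPEB1-KO, and 87.4, 94.1 and 58.2 in CPEB1-KO-LPS. WT-LPS lay above WT without overlap, while CPEB1-KO-LPS overlapped with CPEB1-KO through replicate 3. With both genotypes averaged it passed, at a log2 fold change of 0.62 ± 0.18 (edgeR adjusted p = 0.0201). The wild-type value of 0.70 ± 0.26 narrowly missed the threshold (edgeR adjusted p = 0.0566) and passed it under 8 alternatives, among them DESeq2 (0.0271), other size factors (0.0451), no filter (0.0397) and the fit without WT-LPS replicate 1 (0.0266). In CPEB1-KO the value was 0.54. The average call ended without WT-LPS replicate 3 (adjusted p = 0.0551) or CPEB1-KO replicate 3 (0.0531), and on log2(TPM + 1) with limma (0.0501).

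Pfkfb4 went the other way in wild type. It was 28.0, 48.3 and 59.2 scaled CPM in WT and 21.8, 25.3 and 28.3 in WT-LPS, so that WT replicate 1 reached into the treated range. In CPEB1-KO it was 29.2, 24.3 and 17.9 scaled CPM and in CPEB1-KO-LPS 29.5, 25.1 and 25.5, all within or near the range of WT-LPS. Its log2 fold change was -0.84 ± 0.27 in wild type (edgeR adjusted p = 0.0338) and 0.17 ± 0.27 in CPEB1-KO (edgeR adjusted p = 0.777). The wild-type call ended with the replicate number as a block (adjusted p = 0.0564), in a fit of these groups alone (0.101), on log2(TPM + 1) with limma (0.272), and without any 1 of WT replicates 2 and 3, WT-LPS replicates 1, 2 and 3, CPEB1-KO replicate 2 and CPEB1-KO-LPS replicates 1 and 2 (0.0501 to 0.140). Per length, the make-up of the family shifted: Pfkfb3 held 32.6% ± 7.15 (SD, n = 3) of the summed PFKFB TPM in WT and 82.8% ± 8.17 in WT-LPS, and 35.9% ± 2.41 in CPEB1-KO and 62.2% ± 16.8 in CPEB1-KO-LPS. The lowest treated library, at 49.0%, lay above the highest untreated one, at 39.2%.

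**Figure D2:**
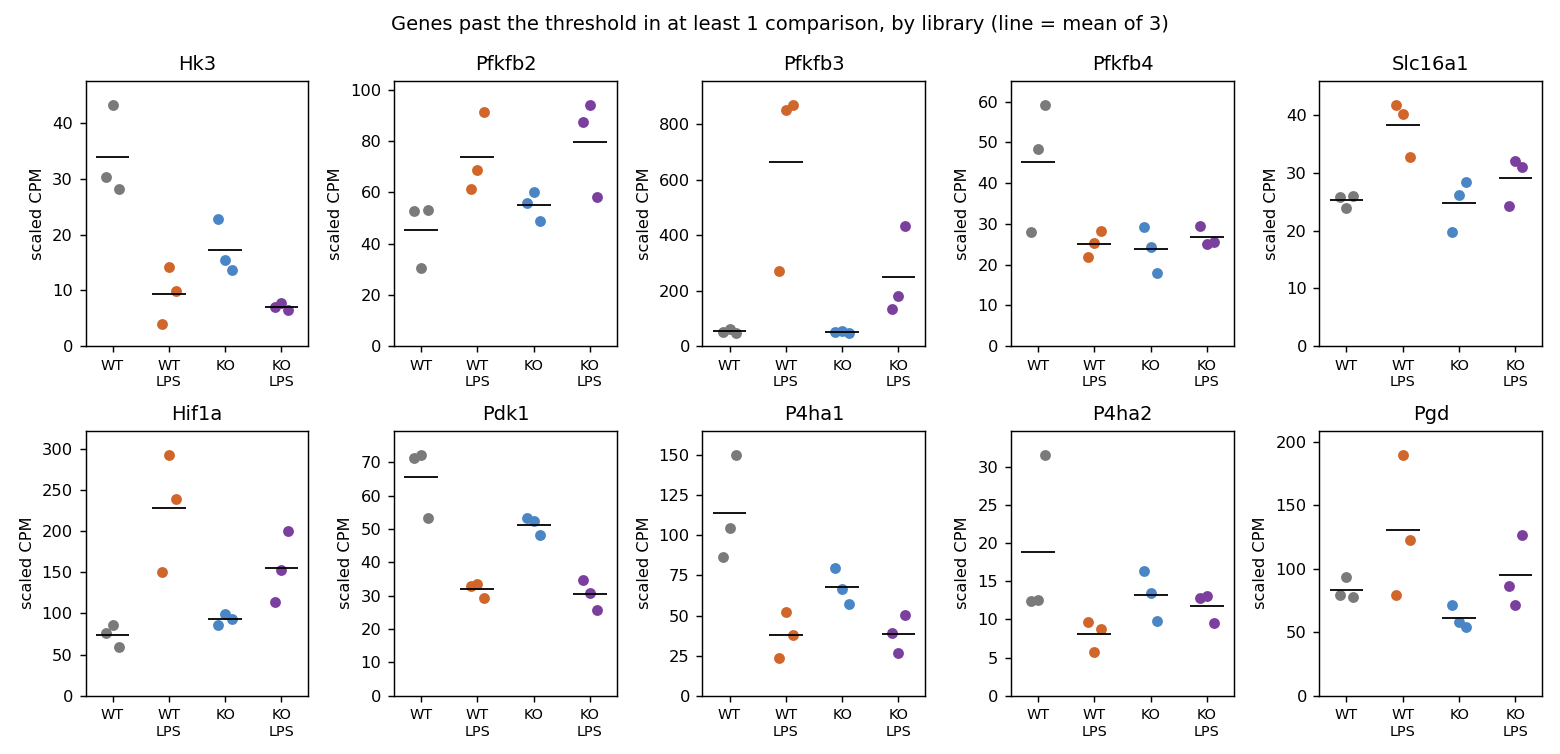
Scaled CPM (y axis of each panel, from 0) of the 10 genes that passed the test in at least 1 LPS comparison, with a point per library, 4 groups on the x axis and a line at the mean of 3. Pfkfb3 spreads from 133 to 868 in the LPS-treated libraries and stays between 47.8 and 61.8 in the untreated ones, and Pdk1 lies lower in every treated library than in any untreated library.

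Among the enzymes that trap and prime glucose, 1 of 7 fell in wild type (14.9% of all genes were called lower) and none rose. Hk3 (chr13:55005985-55021475), the hexokinase isoform found mainly in myeloid cells, was 30.3, 43.3 and 28.2 scaled CPM in WT and 4.01, 14.3 and 9.96 in WT-LPS. It was 22.8, 15.5 and 13.6 in CPEB1-KO and 6.96, 7.70 and 6.40 in CPEB1-KO-LPS. Treated libraries lay below untreated ones in each genotype. The log2 fold change was -1.85 ± 0.38 in wild type (edgeR adjusted p = 0.00389) and -1.57 ± 0.27 on average (edgeR adjusted p = 0.000893), and both calls held in every alternative tried. In CPEB1-KO alone the value was -1.29 ± 0.38 and did not pass (edgeR adjusted p = 0.0601), although DESeq2 called it (0.0154). The microglia marker sum was lower with LPS too, with 5 of its 10 markers called lower in WT-LPS against WT, and its part in the Hk3 difference was not tested.

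Hk1, the housekeeping hexokinase that binds mitochondria and is abundant in brain, was 251, 149 and 124 scaled CPM in WT and 420, 230 and 258 in WT-LPS, ranges that met at WT replicate 1. Its log2 fold change of 0.79 ± 0.29 narrowly missed the threshold (edgeR adjusted p = 0.0571) and passed it without WT replicate 1 (0.00962), without WT-LPS replicate 2 (0.0474), with DESeq2 (0.0172), and on log2(TPM + 1) with limma (0.0186). In CPEB1-KO the 2 groups overlapped, with a value of -0.06 ± 0.29. Of summed hexokinase TPM, Hk1 held 64.1% ± 10.2 (SD, n = 3) in WT, 83.4% ± 9.02 in WT-LPS, 85.4% ± 4.63 in CPEB1-KO and 88.6% ± 3.39 in CPEB1-KO-LPS. Hk3 held 17.3%, 3.90%, 6.63% and 2.85% in the same order. Hk2 (the insulin-responsive hexokinase), Gpi1 (the isomerase) and the phosphofructokinases Pfkl, Pfkm and Pfkp had log2 fold changes from -0.55 to 0.25 in wild type and from -0.18 to 0.13 in CPEB1-KO, and none passed. Pfkl, the liver-type subunit, was the lowest of these, and its WT-LPS libraries lay below those of WT without overlap (119 to 133 against 147 to 223 scaled CPM). Its wild-type value passed without replicate 1 of both WT and WT-LPS (-0.71, edgeR adjusted p = 0.0262), a setting added after seeing the data. Estimated counts of Pfkp were not whole in 11 of 12 libraries, as happens where reads are shared with other transcripts.

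**Figure D3:**
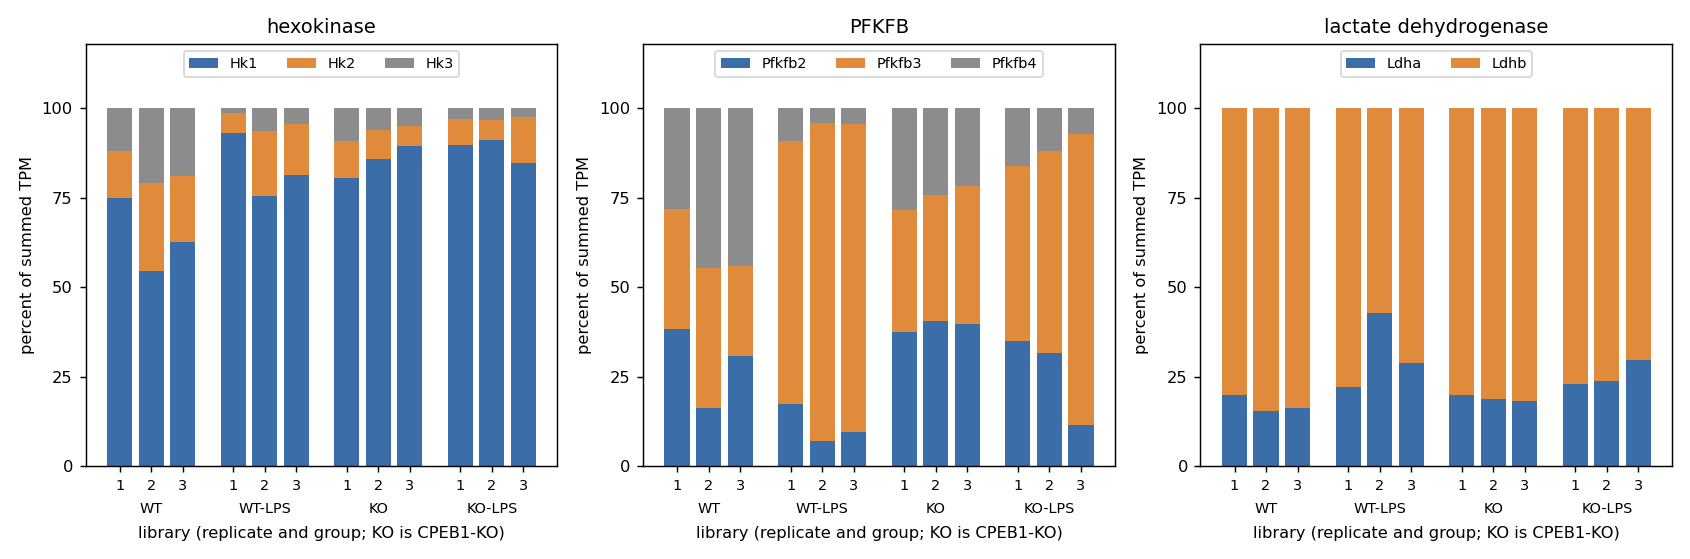
Percent of the summed TPM of a family (y axis) held by each isoform in each of the 12 libraries (x axis), for hexokinase, PFKFB and lactate dehydrogenase. The Pfkfb3 segment widens in every LPS-treated library, the Hk3 segment narrows, and the Ldha share reaches 42.8% in WT-LPS replicate 2.

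None of the 9 enzymes from aldolase to pyruvate kinase passed in any of the 7 comparisons with edgeR and all libraries. At an unadjusted p under 0.05, Eno1 alone did so, in 2 of the genotype comparisons described below. Group means ran from 268 TPM for Pgk1 (phosphoglycerate kinase) in WT to 3570 TPM for Gapdh (glyceraldehyde-3-phosphate dehydrogenase) in WT-LPS. Log2 fold changes with LPS lay between -0.05 and 0.51 in wild type and between -0.35 and 0.23 in CPEB1-KO. The smallest unadjusted p in the average LPS response belonged to Pkm and Gapdh. Pkm, pyruvate kinase, was 1459, 991 and 730 scaled CPM in WT, 1751, 1545 and 1222 in WT-LPS, 1297, 1323 and 1411 in CPEB1-KO, and 1599, 1423 and 1703 in CPEB1-KO-LPS. Treated libraries overlapped with WT replicate 1 and lay just above CPEB1-KO, and the average log2 fold change was 0.37 ± 0.20 (edgeR adjusted p = 0.186). Gapdh was 2291, 1860 and 1110 scaled CPM in WT, 2806, 2712 and 1990 in WT-LPS, 2063, 2184 and 2359 in CPEB1-KO, and 2487, 2268 and 2474 in CPEB1-KO-LPS. The groups overlapped in both genotypes and the average was 0.32 ± 0.21 (edgeR adjusted p = 0.276). Estimated counts of Gapdh, a gene with many processed copies, were not whole in any of the 12 libraries.

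The levels of these 9 enzymes varied between libraries of the same group. In scaled CPM, 8 of the 9 were highest within WT in replicate 1, beside 33.5% of all genes. Within WT-LPS 8 of 9 were highest in replicate 1 (40.6% of all genes), within CPEB1-KO 9 of 9 in replicate 3 (32.8%), and within CPEB1-KO-LPS 6 of 9 in replicate 1 (33.5%). In WT, WT-LPS and CPEB1-KO this was the library with the highest neuron marker sum of its group, and in CPEB1-KO-LPS replicate 1 had the second highest. Their summed level was 9914, 5530 and 4280 TPM in WT, 12834, 9176 and 8823 in WT-LPS, 8920, 10128 and 10962 in CPEB1-KO, and 10956, 9844 and 8405 in CPEB1-KO-LPS. Between same-numbered libraries, the sum was higher in WT-LPS than in WT in 3 of 3 pairs, and so were Pkm, Gapdh, Pgk1 and Pgam1 in scaled CPM. The labels do not state such a pairing. With the replicate number as a block, Pkm had the smallest adjusted p of the 9 in this comparison, at 0.53 ± 0.29 (edgeR adjusted p = 0.200), so that none passed. The part of neuronal RNA in these levels was not tested. The summed level of the 4 pentose phosphate enzymes ran from 311 to 565 TPM. It was highest in WT-LPS replicate 2, a library with 2264 TPM of neuron markers and 4931 TPM of microglia markers, the most of its group. Within WT it was highest in replicate 1 (449, against 328 and 311 TPM), the library with the highest neuron marker sum there. The part of either cell type in it was not tested.

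**Figure D4:**
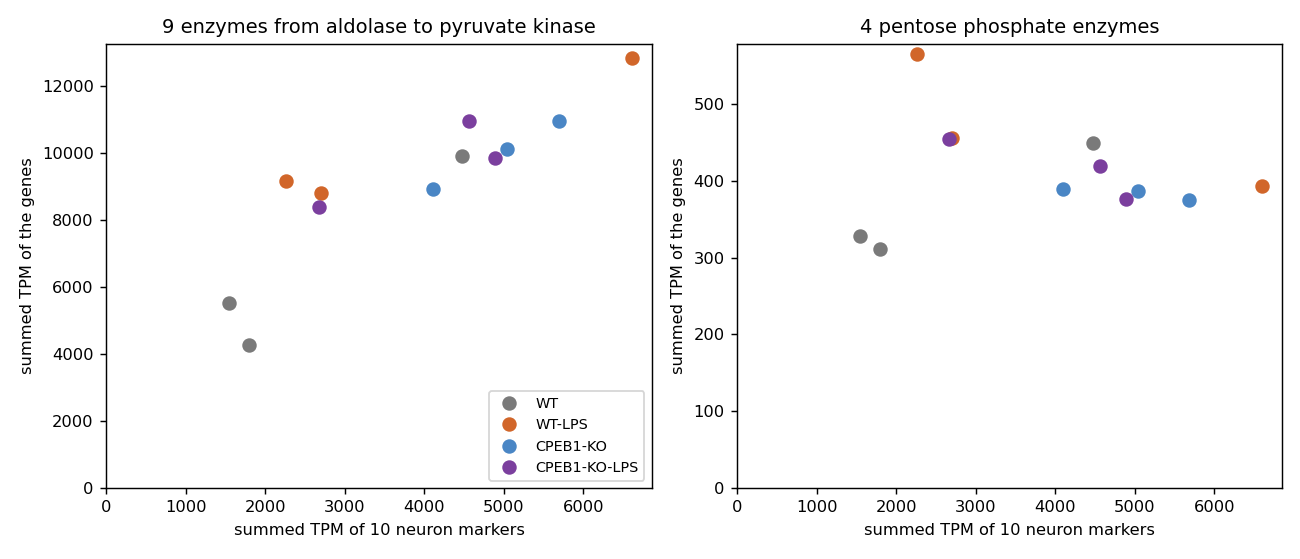
Summed TPM of the 9 enzymes from aldolase to pyruvate kinase (left) and of the 4 pentose phosphate enzymes (right) against the summed TPM of 10 neuron markers (x axes), with a point per library coloured by group. On the left the 2 lowest libraries, WT replicates 2 and 3, also have the lowest neuron marker sums, 1546 and 1791, and the highest, WT-LPS replicate 1 at 12834, has the highest of 6604.

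On the lactate side, 1 of 4 genes rose in wild type (12.4% of all genes were called higher). Slc16a1 (chr3:104638664-104658462), which encodes the monocarboxylate transporter MCT1 that carries lactate across the plasma membrane, was 25.8, 24.0 and 26.1 scaled CPM in WT and 41.8, 40.3 and 32.8 in WT-LPS. In CPEB1-KO it was 19.8, 26.1 and 28.4 scaled CPM, and in CPEB1-KO-LPS 24.3, 32.1 and 31.1. The wild-type groups were well apart and the knockout groups overlapped. Log2 fold changes were 0.60 ± 0.20 in wild type (edgeR adjusted p = 0.0422), 0.23 ± 0.20 in CPEB1-KO (edgeR adjusted p = 0.562) and 0.42 ± 0.14 on average (edgeR adjusted p = 0.0418). The wild-type call ended with the replicate number as a block (0.0635), in a fit of these groups alone (0.101), and without any 1 of the 3 WT libraries, WT-LPS replicates 1 and 2 and CPEB1-KO replicates 2 and 3 (0.0558 to 0.103). The average call ended with the block (0.0623) and without any 1 of the 3 WT libraries, WT-LPS replicate 2, CPEB1-KO replicates 1 and 2 and CPEB1-KO-LPS replicates 2 and 3 (0.0536 to 0.108). Both calls also ended without replicate 1 of both WT and WT-LPS (edgeR adjusted p = 0.107 and 0.0703), a setting added after seeing the data.

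Ldha, the lactate dehydrogenase subunit known as a HIF target, was higher by 0.49 ± 0.20 on average (edgeR adjusted p = 0.0864) and did not pass. It passed on log2(TPM + 1) and log2(TPM + 0.1) with limma (adjusted p = 0.0228 and 0.0236), without WT replicate 1 (edgeR adjusted p = 0.0343), and without replicate 1 of both WT and WT-LPS (0.0276), a setting added after seeing the data. Its share of summed lactate dehydrogenase TPM was 17.3% ± 2.45 (SD, n = 3) in WT and 31.2% ± 10.5 in WT-LPS, with 22.1%, 42.8% and 28.8% in the 3 treated libraries, all above the highest WT library at 20.1%. In CPEB1-KO the share was 19.0% ± 0.858 and in CPEB1-KO-LPS 25.6% ± 3.74, again without overlap. Ldhb, the subunit typical of heart and neurons, made up the rest in every library. Slc16a3, which encodes the lactate exporter MCT4, was higher by 0.61 in wild type and 0.78 in CPEB1-KO with overlapping groups, and did not pass.

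Of HIF and its hydroxylases, Hif1a rose. The transcript of Hif1a (chr12:73901324-73947554), the oxygen-regulated subunit of the factor, was at 76.4, 85.9 and 59.5 scaled CPM in WT and 151, 292 and 239 in WT-LPS. In CPEB1-KO it was at 85.6, 99.6 and 93.0 scaled CPM, and in CPEB1-KO-LPS at 113, 153 and 200. No treated library overlapped with an untreated one, and the distance was smaller in the knockout libraries. The log2 fold change was 1.62 ± 0.27 in wild type (edgeR adjusted p = 0.00144), 0.74 ± 0.27 in CPEB1-KO (edgeR adjusted p = 0.126) and 1.18 ± 0.19 on average (edgeR adjusted p = 0.000647). The wild-type and average calls held in every alternative tried, and the CPEB1-KO value passed in none of 22 (adjusted p from 0.0691 to 0.361). Egln1, the main prolyl hydroxylase that marks HIF1A for destruction, was at 0.01 ± 0.24 in wild type and -0.02 ± 0.24 in CPEB1-KO. Egln3, a hydroxylase that is itself a HIF target, had group means of 2.72 to 6.45 TPM and values of -0.69 ± 0.38 and -0.32 ± 0.35 that did not pass. Without replicate 1 of both WT and WT-LPS, a setting added after seeing the data, its wild-type value was -1.39 and passed (edgeR adjusted p = 0.0146). The average then passed too, at -0.85 (edgeR adjusted p = 0.0124).

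Of the 6 other HIF targets in this group, 3 fell in wild type (14.9% of all genes were called lower) and none rose, and the 3 that did not pass had values of both signs. Known HIF targets also stand in the groups above, such as Pfkfb3 and Ldha. Pdk1 (chr2:71873215-71903858), the kinase that shuts pyruvate dehydrogenase and so keeps pyruvate out of mitochondria, was 71.2, 72.3 and 53.4 scaled CPM in WT and 32.9, 33.5 and 29.4 in WT-LPS. It was 53.3, 52.3 and 48.3 in CPEB1-KO and 34.6, 30.9 and 25.7 in CPEB1-KO-LPS. Every treated library was below every untreated one. Log2 fold changes were -1.04 ± 0.19 in wild type (edgeR adjusted p = 0.00194), -0.75 ± 0.18 in CPEB1-KO (edgeR adjusted p = 0.0291) and -0.90 ± 0.13 on average (edgeR adjusted p = 0.000326). The average call held in all 21 alternatives tried. On log2(TPM + 1) with limma the calls within each genotype were lost (0.0607 and 0.0946), and the CPEB1-KO call also ended without any 1 of CPEB1-KO replicates 1, 2 and 3 and CPEB1-KO-LPS replicates 2 and 3 (0.0840 to 0.115).

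P4ha1 and P4ha2 encode the catalytic subunits of collagen prolyl 4-hydroxylase. P4ha1 (chr10:59323197-59373304) was 86.6, 105 and 150 scaled CPM in WT and 23.4, 52.0 and 37.8 in WT-LPS. It was 79.5, 66.6 and 57.3 in CPEB1-KO and 39.3, 26.5 and 50.3 in CPEB1-KO-LPS. LPS-treated libraries were below untreated ones throughout. Its log2 fold change was -1.59 ± 0.32 in wild type (edgeR adjusted p = 0.00338), -0.81 ± 0.31 in CPEB1-KO (edgeR adjusted p = 0.153) and -1.20 ± 0.22 on average (edgeR adjusted p = 0.00156). The wild-type and average calls held in every alternative tried.

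P4ha2 was 12.4, 12.5 and 31.6 scaled CPM in WT and 9.65, 5.70 and 8.74 in WT-LPS, and 16.4, 13.4 and 9.76 in CPEB1-KO and 12.8, 13.1 and 9.48 in CPEB1-KO-LPS. WT replicate 3 stood far above the other WT libraries. The wild-type log2 fold change of -1.22 ± 0.37 (edgeR adjusted p = 0.0280) came to -0.63 without that library and no longer passed (0.166). It also did not pass without WT-LPS replicate 2 (0.0958) or replicate 3 (0.0653), in a fit of these groups alone (0.0731), or on log2(TPM + 1) with limma (0.183). In CPEB1-KO it was -0.16 ± 0.36, and on average -0.69 ± 0.26 (edgeR adjusted p = 0.0612), which passed with DESeq2 (0.0367), without WT replicate 1 (0.0329) or 2 (0.0449), and without replicate 1 of both wild-type groups (0.0317). Vegfa (the angiogenic growth factor), Bnip3 (a mitophagy receptor) and Ero1l (an oxidase of the endoplasmic reticulum) had wild-type values of -0.46, 0.69 and 0.51 and knockout values of -0.77, 0.38 and -0.01, and none passed.

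In the pentose phosphate branch 1 of 4 enzymes rose on average (14.6% of all genes were called higher). Pgd (chr4:149149991-149166705), 6-phosphogluconate dehydrogenase, which makes NADPH, was 79.5, 93.2 and 78.0 scaled CPM in WT, 79.0, 190 and 122 in WT-LPS, 71.2, 57.8 and 54.5 in CPEB1-KO, and 86.3, 71.3 and 126 in CPEB1-KO-LPS. WT-LPS replicate 1 stayed at the level of WT, and the knockout groups did not overlap. The average log2 fold change was 0.64 ± 0.21 (edgeR adjusted p = 0.0337), with 0.64 in wild type and 0.63 in CPEB1-KO, neither of which passed alone (edgeR adjusted p = 0.116 and 0.244). The wild-type value came to 1.00 and passed without WT-LPS replicate 1 (edgeR adjusted p = 0.0181), and it passed on log2(TPM + 1) with limma (0.0173). The average call ended with the replicate number as a block (0.0569) and without any 1 of WT replicates 1 and 3, WT-LPS replicates 2 and 3, CPEB1-KO replicates 2 and 3 and CPEB1-KO-LPS replicate 3 (0.0544 to 0.0933). G6pdx, the enzyme that commits glucose to the branch, and Tkt, transketolase, were at 0.50 and 0.47 in wild type, and Taldo1, transaldolase, was at -0.55, none past the threshold. Within WT-LPS all 4 were highest in replicate 2, beside 30.9% of all genes.

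None of the 36 genes was shown to differ in LPS response between genotypes. The interaction, the response in CPEB1-KO minus that in wild type, passed for 0 of the 36 genes with edgeR (0.00654% of all genes) and 0 with DESeq2. An unadjusted p under 0.05 was seen in 4, beside 15.5% of all genes. These were Pfkfb4 at 1.01 ± 0.38, Pfkfb3 at -1.35 ± 0.63, Hif1a at -0.88 ± 0.38 and Pfkl at 0.67 ± 0.28, with edgeR adjusted p of 0.248, 0.320, 0.295 and 0.283. For Pfkfb3 and Hif1a, the negative sign means a smaller rise in the libraries labelled CPEB1-KO. The microglia marker sum was 765 to 2928 TPM in CPEB1-KO-LPS and 1042 to 4931 TPM in WT-LPS, and its part in these values was not tested.

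With all libraries included, edgeR called none of the 36 genes between genotypes. CPEB1-KO against WT gave 0 calls with edgeR (0.0327% of all genes) and 1 with DESeq2, Pfkfb4, with 6 at an unadjusted p under 0.05, beside 18.6% of all genes. CPEB1-KO-LPS against WT-LPS gave 0 with both tools (0.00654% of all genes with edgeR), and an unadjusted p under 0.05 in 3, namely Pfkfb3, Eno1 and Egln3, beside 10.8% of all genes. Averaged over treatment, edgeR called 0 (0.124% of all genes), DESeq2 called 1, Eno1, with 7 at an unadjusted p under 0.05, beside 13.4% of all genes. These comparisons share their wild-type libraries with the LPS comparisons above, so that Hk3 and P4ha1, lower with LPS and in CPEB1-KO, are measured against the same 3 WT libraries in both. The average differences of Hk2 (-0.70 ± 0.26), Pfkfb3 (-0.74 ± 0.31) and Egln3 (0.78 ± 0.26) did not pass (edgeR adjusted p = 0.339, 0.362 and 0.334).

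In CPEB1-KO against WT and in the average over treatment, this result rested on replicate 1 of WT and WT-LPS. These libraries stood apart by their neuron markers. They also stood apart by the reads given to Eno1b, a copy of Eno1 described below. Its share was 1.25% and 0.966% in them, 20.7% to 23.0% in the other wild-type libraries and 42.9% to 48.2% in those labelled CPEB1-KO. The source of these shares was not tested. Without WT replicate 1, Hk1 was higher in CPEB1-KO than in WT (1.13, edgeR adjusted p = 0.0301) and Pfkfb4 lower (-1.18, 0.0164). With both replicate 1 libraries left out, a setting chosen after seeing the data, CPEB1-KO against WT gave 6 calls of 36 beside 15.3% of all genes (6.8% higher and 8.54% lower): Hk1, Aldoa and Pgam1 were higher and Pfkfb4, Hk3 and P4ha1 lower. The average over treatment then gave 12 calls beside 14.5% of all genes (7.39% higher and 7.07% lower), 7 higher (Aldoa, Tpi1, Pgam1, Eno2, Hk1, Bnip3 and Egln3) and 5 lower (Hk2, Hk3, Pfkfb3, Pfkfb4 and Pgd). None of the 36 genes passed in CPEB1-KO-LPS against WT-LPS, where Egln3 came nearest (edgeR adjusted p = 0.0622), or in the interaction. In the same fit 7 of 10 neuron markers were higher and 3 of 10 microglia markers lower on average in the libraries labelled CPEB1-KO, whereas with all libraries none of these 20 passed. The remaining WT libraries had neuron marker sums of 1546 and 1791 TPM, against 4103 to 5688 TPM in CPEB1-KO. Genotype, the make-up of the preparations and whatever divides the Eno1b shares cannot be told apart in this setting.

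Eno1, the enolase of most tissues, gave a genotype difference that depended on how reads were divided with a copy. It was 845, 632 and 390 scaled CPM in WT, 815, 657 and 506 in WT-LPS, 415, 418 and 460 in CPEB1-KO, and 392, 324 and 383 in CPEB1-KO-LPS. CPEB1-KO-LPS lay below WT-LPS without overlap, and CPEB1-KO overlapped with WT at WT replicate 3. The average difference was -0.69 ± 0.20 (edgeR adjusted p = 0.325; DESeq2 adjusted p = 0.0239). Its counts were not whole in any library, and its near-identical copy Eno1b, looked at after these values were seen, took a share of their sum that came at 3 levels. The share was 1.25% in WT replicate 1 and 0.966% in WT-LPS replicate 1, between 20.7% and 23.0% in the other 4 wild-type libraries, and between 42.9% and 48.2% in all 6 libraries labelled CPEB1-KO. The 95% Wilson intervals, which cover counting error only, were at most 1.57 points to either side. With both rows summed, a setting added after seeing the data, the average difference was -0.06 ± 0.18 (edgeR adjusted p = 0.878), and that between the LPS-treated groups went from -0.85 to -0.20. The Eno1 values are therefore uncertain between genotypes.

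**Figure D5:**
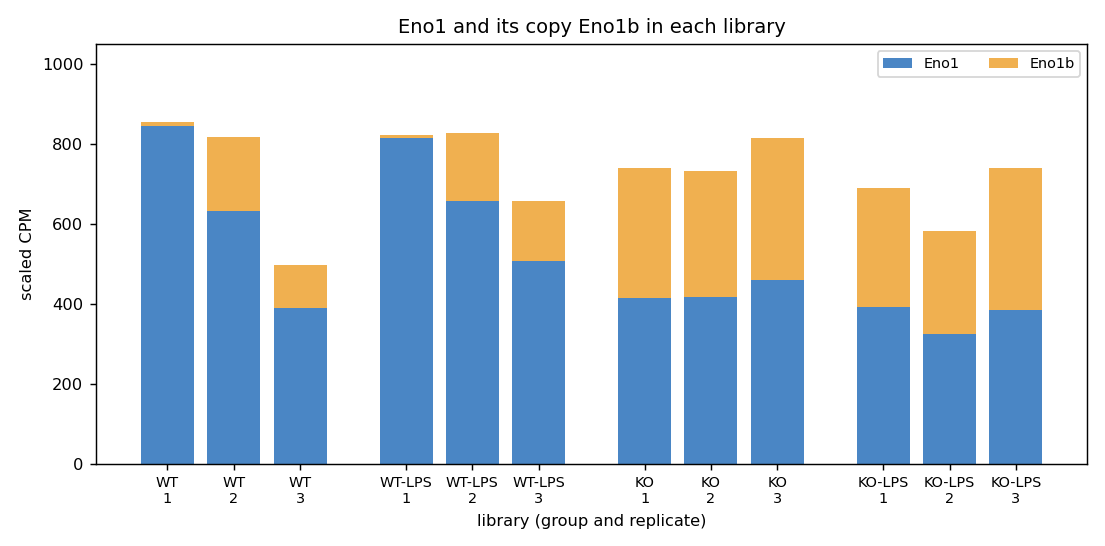
Scaled CPM (y axis, from 0) of Eno1 (blue) and of its near-identical copy Eno1b (orange), stacked, in each of the 12 libraries (x axis; KO is CPEB1-KO). The orange share is near 0 in replicate 1 of WT and WT-LPS and largest in the 6 CPEB1-KO and CPEB1-KO-LPS libraries, while the height of the whole bar overlaps between genotypes.

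Genes next to these in the same pathways were counted from 2 further lists. Of 33 other genes of glucose uptake, the pentose phosphate branch and pyruvate use, 27 were tested, and 3 rose and 5 fell in WT-LPS against WT, 1 fell in CPEB1-KO-LPS against CPEB1-KO, and 5 rose and 2 fell on average. In either direction, the shares of all genes called were 27.4%, 6.22% and 29.4%. Slc2a1, the glucose transporter GLUT1, was 23.8 ± 5.35 TPM (SD, n = 3) in WT, 77.9 ± 24.5 in WT-LPS, 36.4 ± 5.12 in CPEB1-KO and 51.9 ± 6.48 in CPEB1-KO-LPS, an average log2 fold change of 0.96 ± 0.15 (edgeR adjusted p = 0.000492). Pdk4, a relative of Pdk1 with the same substrate, rose by 1.12 ± 0.22 on average (edgeR adjusted p = 0.0023), opposite in sign to Pdk1. Slc16a7, the monocarboxylate transporter MCT2, fell by 1.27 on the log2 scale (edgeR adjusted p = 0.00326), opposite in sign to Slc16a1. Of 26 other genes of the HIF pathway, a list that also holds Slc2a1, 11 rose and 1 fell in wild type, 7 rose and 1 fell in CPEB1-KO, and 11 rose and 1 fell on average. Those that rose on average included Plin2, a lipid droplet coat protein (2.34 ± 0.21), Ddit4, an inhibitor of mTORC1 (1.81 ± 0.16), Angptl4, a lipase inhibitor (2.72 ± 0.28), and Hif3a, a HIF paralogue (3.16 ± 0.35), with edgeR adjusted p of at most 4.05e-05. Car12, a carbonic anhydrase, fell by 1.90 (edgeR adjusted p = 4.27e-06). For all genes these shares were 12.4% higher and 14.9% lower in wild type, 4.1% and 2.12% in CPEB1-KO, and 14.6% and 14.8% on average. Both lists, like the 36 genes, were chosen with earlier results of these data known, and their counts are a description. No gene of either list passed in a genotype comparison or in the interaction.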

How the data were processed

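Poly(A) libraries of total RNA from 12 microglia preparations were sequenced, in 4 groups of 3 and 1 animal per library per the labels. The authors deposited expected counts per gene, not normalised between libraries, and TPM computed within each library. Per the submitters' processing notes, cutadapt, RSEM and the mm10 build were used. Versions, aligner and strand setting do not appear in the sources used here. Between 3.69% and 4.66% of the deposited expected counts were not whole.

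The rounded expected counts went into edgeR 4.0.16 (R 4.3.3). filterByExpr kept 15295 genes, TMM gave the library sizes, and a quasi-likelihood model with a mean per group was fitted to all 12 libraries (8 residual degrees of freedom, common biological coefficient of variation 0.282). The 7 two-sided contrasts were adjusted by Benjamini-Hochberg over all genes. Standard errors are the log2 fold change divided by the square root of F. Levels between genes are compared in TPM only. The procedure was tested on simulated data, in which 2.15% of calls were false. Far fewer genes changed there than were called in the LPS comparison of wild type, so that share does not carry over to it.

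Members and lists were chosen with earlier results of these data known. Values in every library are given for each gene past an adjusted p of 0.05 in any contrast and, in a role group with none, for the 2 genes with the smallest unadjusted p in the average LPS response. Alternatives were other size factors, DESeq2 1.42.0, limma 3.58.1 on log2(TPM + 1) and log2(TPM + 0.1), no filter, a mean of at least 10 counts, the replicate number as a block, only the groups compared, and each library left out. The labels state no pairing. Same-numbered WT and WT-LPS libraries had r of 0.378, 0.149 and 0.176 over genes in their deviations from the group mean. WT replicate 2 and WT-LPS replicate 3 reached 0.141, so that only replicate 1 stood out. Pairs by number and the block are therefore given as an alternative only. In the other comparisons the correlations were not all above 0.1. Promoters came from RefSeq sequences of GRCm38.p6.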

Additional observations from a re-analysis of the deposited data

How the results depend on the processing

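The number of the 36 genes called in WT-LPS against WT was 8, and went to 12 with DESeq2, to 13 on both TPM scales with limma, to 5 with only these groups fitted, and from 5 to 11 with a library left out. The shares of all genes called by DESeq2 and with 1 library left out are not given here. The counts of these settings therefore cannot be set against all genes. In CPEB1-KO-LPS against CPEB1-KO the 2 calls became 3 with DESeq2, 1 on both TPM scales and 0 to 3 with a library left out. In the average LPS response the 8 calls became 10 with DESeq2 and 6 to 12 with a library left out. CPEB1-KO against WT went from 0 to 1 with DESeq2, to 0 to 2 with a library left out, and to 6 without WT and WT-LPS replicate 1 together. The average genotype difference went from 0 to 1 with DESeq2 and to 12 without those libraries. Leaving them out changed LPS calls as well. In WT-LPS against WT, Hk1, Ldha, Pfkfb2, Pfkl and Egln3 then passed and Slc16a1 no longer did. In the average LPS response, Hk1, Ldha, P4ha2 and Egln3 then passed and Slc16a1 no longer did. The cause was not tested. With the replicate number as a block, a pairing that the labels do not state, 6 genes were called in WT-LPS against WT. The counts were 2 in CPEB1-KO-LPS against CPEB1-KO, 6 in the average LPS response and 0 elsewhere. The block ended the calls of Slc16a1, Pfkfb4 and Pgd given above and no others. For 47 results, each a named gene in 1 comparison, 1013 values were computed under the alternatives. Of these, 906 kept direction and side of the threshold, 61 lost a call, 44 gained one and 2 changed sign. The sign changed in CPEB1-KO-LPS against CPEB1-KO for Pfkfb4, at -0.0034 to 0.34 with a library left out, and P4ha2, at -0.33 to 0.026, neither of them past the threshold. Depth limited Egln3 and Slc16a3 most, at 26 and 48 counts in their lowest libraries.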
